A study of Homo sapiens with 18 samples.

Results

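The keratin genes were taken as every row of the expression table named KRT followed by a number and at most 1 letter, which leaves out keratin-associated proteins and pseudogenes and gave 55 of the 23571 named genes. They were measured by RNA sequencing in SW48, a human colon adenocarcinoma line kept in culture, as 18 libraries in 6 groups of 3. CHD4 is the chromatin-remodelling ATPase of the NuRD complex, and the groups compare its depletion in otherwise untreated cells with depletion in cells whose DNA methylation machinery was also targeted. One pair of groups received control siRNA or siRNA against CHD4 (siCHD4) on days 1, 3 and 6 and was harvested on day 8. A second pair received siRNA against DNMT1 (siDNMT1), the maintenance DNA methyltransferase, on days 1, 3 and 5, then control siRNA or siCHD4 on days 7 and 8, and was harvested on day 11. The remaining pair received 50 nM decitabine, a cytidine analogue that traps DNA methyltransferases, on days 1, 2 and 3 and control siRNA or siCHD4 on days 1 and 2, and was harvested on day 5. SW48 is a single cancer line, and no label tells if replicates are separate cultures. The p-values therefore reflect the spread among libraries only, which could be technical. In the comparisons of siDNMT1 or decitabine with control siRNA alone, treatment and schedule cannot be told apart. The days of siCHD4 transfection and harvest also differ among the 3 backgrounds, so a difference of siCHD4 effects between backgrounds cannot be told apart from the schedule.

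Keratins are the intermediate filament proteins of epithelial cells, and each filament pairs a type I (acidic) with a type II (basic) keratin. KRT8 and KRT18 form the filaments of simple, single-layered epithelia such as that of the colon, KRT19 and KRT7 are further simple keratins, and KRT20 marks differentiated cells of the gut lining. KRT5 pairs with KRT14 in the basal layer of stratified epithelia such as skin, KRT16 and KRT17 are induced in wounded or inflamed skin, and KRT31, KRT81, KRT85 and KRT86 belong to the hair keratins of the hair shaft. By these roles the 55 genes comprised 4 simple, 1 intestinal, 3 other epithelial (KRT23, KRT80 and KRT222), 21 stratified, 9 inner root sheath and 17 hair keratins.

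Because 2 of the treatments act on DNA methylation, which in human cells falls mostly on the C of CG pairs, the promoters of 3 keratins whose levels changed are shown, 1 stratified, 1 hair and 1 intestinal. They run from 250 bases before to 50 bases after the start of the gene in RefSeq (GRCh38.p14), all on the minus strand, with CG pairs in capitals. The KRT5 window is chr12:52520345-52520644, that of KRT31 is chr17:41397559-41397858 and that of KRT20 is chr17:40885193-40885492.
KRT5: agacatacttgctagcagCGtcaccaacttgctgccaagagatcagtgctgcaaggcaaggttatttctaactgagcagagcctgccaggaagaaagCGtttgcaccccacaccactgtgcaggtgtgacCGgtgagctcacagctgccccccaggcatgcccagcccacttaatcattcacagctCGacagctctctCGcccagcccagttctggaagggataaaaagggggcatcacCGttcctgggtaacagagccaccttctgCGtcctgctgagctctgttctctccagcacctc
KRT31: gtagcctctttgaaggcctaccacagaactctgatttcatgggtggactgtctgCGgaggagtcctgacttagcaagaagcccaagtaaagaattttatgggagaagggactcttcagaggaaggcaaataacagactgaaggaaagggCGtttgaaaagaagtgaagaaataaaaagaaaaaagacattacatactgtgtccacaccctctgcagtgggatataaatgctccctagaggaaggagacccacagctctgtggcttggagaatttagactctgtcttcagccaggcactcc
KRT20: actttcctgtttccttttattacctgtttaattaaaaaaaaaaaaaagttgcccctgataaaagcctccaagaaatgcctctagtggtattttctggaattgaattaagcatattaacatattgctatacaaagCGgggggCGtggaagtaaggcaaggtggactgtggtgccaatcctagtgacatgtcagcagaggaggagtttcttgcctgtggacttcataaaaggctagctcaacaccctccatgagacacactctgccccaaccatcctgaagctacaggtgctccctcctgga
The KRT5 window holds 7 CG pairs, and the KRT31 and KRT20 windows hold 2 each. Promoters were found for 34 of the 55 keratins (38 entries), among them 6 of the 15 keratins tested below. KRT40 and KRT85 had more than 1 entry. No entry was found for KRT7, KRT16, KRT17, KRT18, KRT19, KRT23, KRT80, KRT81 and KRT86, so the values that follow do not cover these. The 38 keratin entries had a median of 2 CG pairs, against 14 over all 35116 promoters of the same length in the table. At least 20 CG pairs were present in 41.2% of all promoters and in 0 of the keratin entries. The letters ATAAA, read on either strand and sharing no CG, occurred in 89.5% of the keratin entries and in 34.9% of all promoters, and a CG pair in 86.8% and 96.0%. Methylation itself was not analysed here.

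Expression was given as FPKM, fragment numbers corrected for transcript length and library size, so levels can be set side by side between genes. The libraries listed 11477 to 12502 genes at 1 FPKM or more, and read totals were not used here. Judged by the most common ratio of low values to those of control siRNA replicate 0, the decitabine library with control siRNA replicate 0 was the shallowest. Low values were those of genes above 0 in both libraries with a mean under 0.5 FPKM. By this estimate 1 fragment there was worth 4.11 times as much FPKM as in control siRNA replicate 0. CHD4 stood at 59.1 to 68.2 FPKM with control siRNA and 23.2 to 39.0 with siCHD4, at 63.7 to 73.9 and 27.1 to 29.1 in the siDNMT1 background, and at 66.8 to 81.5 and 52.6 to 56.5 in the decitabine background, where depletion was weakest. Control siRNA replicate 2 and siCHD4 replicate 2 stood apart from their groups for several keratins, and results that rest on them are given with and without them. The latter had the least CHD4 of its group (23.2 FPKM, against 39.0 and 31.8 in replicates 0 and 1), the former the most of its group (68.2 FPKM). What part this had was not tested. Of 10 colon epithelial markers 8 reached 1 FPKM in at least 3 libraries (not CDX1 and LGALS4), and the summed markers of fibroblasts, blood and endothelial cells stayed at or below 16.0, 7.69 and 0.529 FPKM in every library. These sums moved with treatment. The sum of the 8 fibroblast markers, of which COL1A1, LUM and DCN reached 1 FPKM in at least 3 libraries and COL3A1 was listed at 0 in all, was 0.121 to 0.490 FPKM with control siRNA, 0.414 to 3.796 with siCHD4, 3.99 to 4.11 with siDNMT1, 14.2 to 16.0 with siCHD4 plus siDNMT1, 0.624 to 3.90 with decitabine and 6.78 to 7.67 with siCHD4 plus decitabine. The sum of the 6 blood markers (HBB at 0 in all) was 1.59 to 2.51 FPKM with control siRNA and 6.31 to 7.69 with siCHD4 plus siDNMT1, and that of the 4 endothelial markers 0.0375 to 0.0803 and 0.399 to 0.529. Their part in the results below was not tested. Of 10 keratinocyte markers KRT5, KRT10 and COL17A1 reached that level, KRT1 and LOR were listed at 0 in all 18 libraries, and TP63, the master regulator of stratified epithelia, had group means of 0.0547 to 0.310 FPKM.

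**Figure D1:**
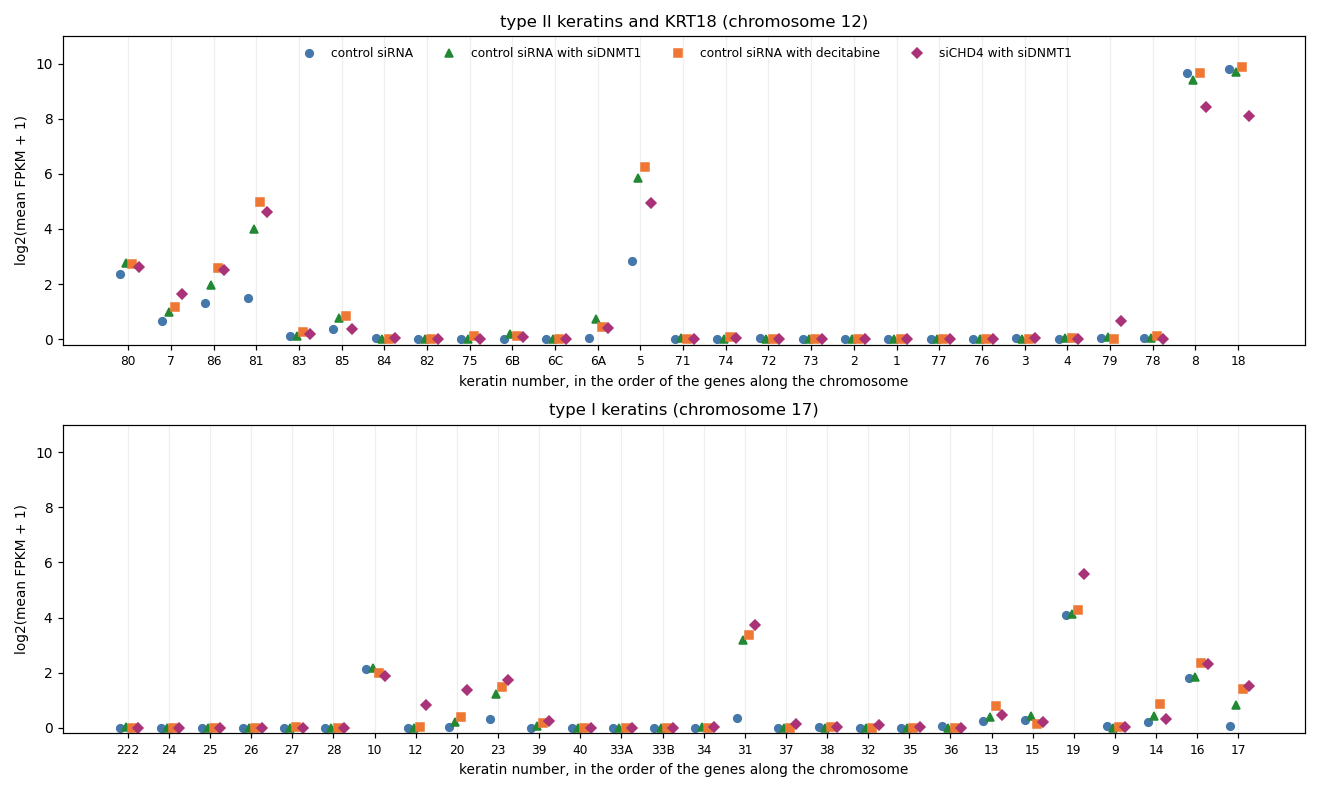
Mean expression of the 55 keratins in 4 of the 6 groups, as log2(mean FPKM + 1) of 3 libraries, with the genes in their order along chromosomes 12 (type II keratins and KRT18) and 17 (other type I keratins). Most positions lie near 0, KRT8 and KRT18 stand highest, and KRT5, KRT81 and KRT31 lie higher in the siDNMT1 and decitabine groups than with control siRNA.

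The 55 genes lie in a pair of clusters. On chromosome 12 there are 27 keratins between 52562780 and 53346690 (783.9 kb, GRCh37), the type II keratins and KRT18, and on chromosome 17 there are 28 between 38810917 and 39781094 (970.2 kb), the other type I keratins. Of the 55, 15 reached 1 FPKM in at least 3 libraries and were tested, and 9 were listed at 0 in every library. The tested genes were KRT7, KRT8, KRT18 and KRT19 (4 of 4 simple), KRT20, KRT23 and KRT80 (2 of 3 other epithelial), KRT5, KRT10, KRT16 and KRT17 (4 of 21 stratified) and KRT31, KRT81, KRT85 and KRT86 (4 of 17 hair). Some passed through few groups only: KRT7 and KRT85 were at 1 FPKM or more in all 3 libraries of 1 group, KRT17, KRT20 and KRT23 of 3 groups, and KRT31 of 4 groups. Such genes had to differ between groups to be tested, so the counts that follow describe the genes and do not support a property of keratins at large.

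Genes were tested on log2(FPKM + 1) with limma, a linear model fitted over the 12809 genes that reached 1 FPKM in at least 3 libraries, and are said to rise or fall where the Benjamini-Hochberg adjusted p was below 0.05. With siCHD4 alone 2 of the 15 tested keratins rose (KRT20 and KRT17), where 9.58% of all tested genes rose, and 3 fell (KRT8, KRT18 and KRT16), where 9.71% fell, and the counts at an unadjusted p under 0.05 were also 2 and 3. In the siDNMT1 background siCHD4 raised 6 (KRT19, KRT20, KRT17, KRT7, KRT31 and KRT16; 24.8% of all tested genes) and lowered 4 (KRT8, KRT18, KRT5 and KRT85; 24.6%), the latter 26.7% of the tested keratins and near the share of all genes. In the decitabine background it raised 4 (KRT20, KRT31, KRT17 and KRT85; 3.26%) and lowered KRT8 and KRT18 (1.31%). Compared with control siRNA alone, siDNMT1 raised 5 (KRT5, KRT31, KRT81, KRT17 and KRT85; 6.94%) and lowered 0 (4.4%), and decitabine raised 8 (the same 5 with KRT86, KRT23 and KRT16; 9.6%) and lowered 0 (8.63%). In limma no tested keratin was lower at an unadjusted p under 0.05 in either of these. The siDNMT1 and decitabine comparisons use the same 3 control libraries. All treated libraries lay above all controls for 2 of the 15 tested keratins with siCHD4 alone (16.6% of all tested genes) and below them for 3 (16.9%). With siCHD4 in the siDNMT1 background these counts were 9 (33.7%) and 5 (36.4%), and in the decitabine background 5 (13.8%) and 3 (13.2%). With siDNMT1 against control siRNA they were 8 (19.4%) and 2 (22.2%), and with decitabine 8 (16.9%) and 0 (17.7%). The median log2 change of the tested keratins and of all tested genes was 0.10 and 0.00 with siCHD4 alone, 0.51 and -0.01 in the siDNMT1 background, -0.13 and 0.01 in the decitabine background, 0.38 and -0.01 with siDNMT1, and 0.48 and -0.02 with decitabine.

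**Figure D2:**
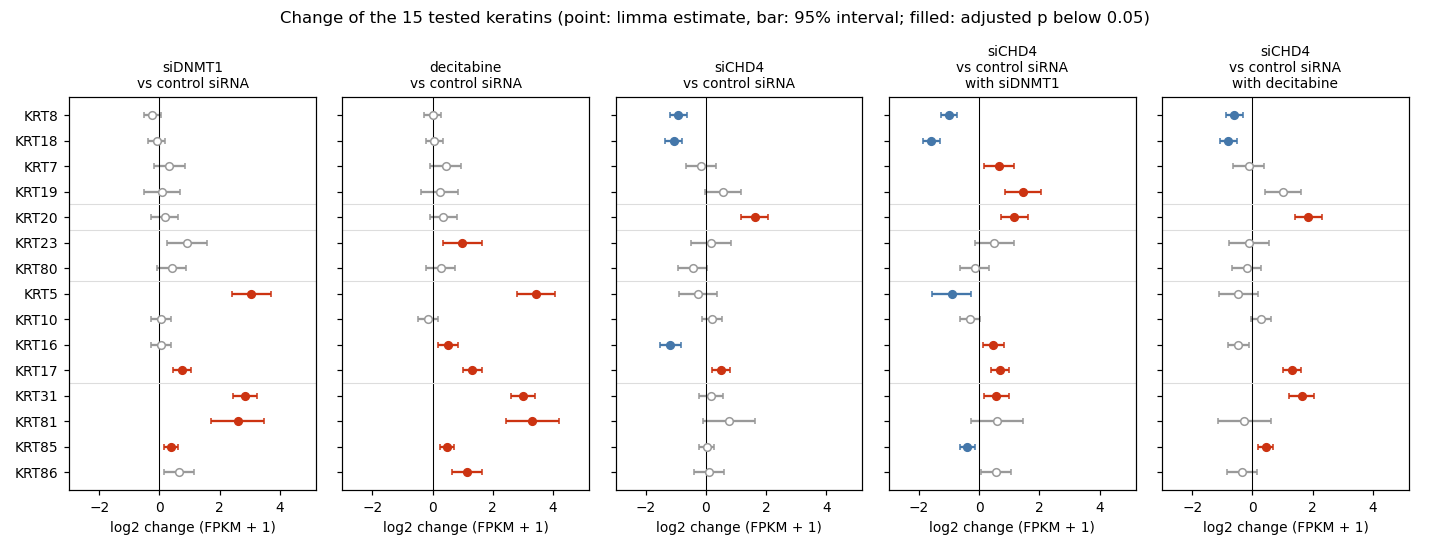
Log2 change of FPKM + 1 of the 15 tested keratins in 5 comparisons, with limma's 95% interval, grouped as simple, intestinal, other epithelial, stratified and hair keratins from top to bottom. Filled points passed the test (adjusted p below 0.05). KRT8 and KRT18 lie below 0 in the 3 siCHD4 panels, KRT20 and KRT17 lie above 0 there, and KRT5, KRT31 and KRT81 have the highest values in the siDNMT1 and decitabine panels.

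KRT8 and KRT18, the pair that builds the filaments of simple epithelia, were the most abundant keratins in every library, and both fell with siCHD4 in all 3 backgrounds. KRT18 (chromosome 12, 53342655 to 53346690, plus strand) was listed at 924, 862 and 867 FPKM in control siRNA replicates 0, 1 and 2 and at 403, 490 and 374 with siCHD4. The groups did not overlap, and the siCHD4 mean was 47.7% of the control mean (log2 change -1.07, SE 0.13, adjusted p = 8.54e-05). In the siDNMT1 background KRT18 stood at 839, 819 and 825 FPKM with control siRNA and at 267, 283 and 272 with siCHD4, its lowest levels in the study. That is 33.1% of the control (log2 change -1.59, SE 0.13, adjusted p = 4.59e-07). With decitabine the values were 1193, 808 and 810 FPKM with control siRNA and 541, 517 and 534 with siCHD4, again without overlap. The fall there was to 56.6% of a control mean that the shallow replicate 0 raised (log2 change -0.79, adjusted p = 0.0021).

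KRT8 (chromosome 12, 53290971 to 53343738, minus strand) was at 799, 735 and 881 FPKM with control siRNA and at 413, 489 and 379 with siCHD4, which is 53.0% of the control (log2 change -0.92, SE 0.13, adjusted p = 0.000276). With siDNMT1 it was at 667, 653 and 722 FPKM and, with siCHD4 added, at 349, 342 and 329, 49.9% of the control (log2 change between -1.28 and -0.72 at 95% confidence, adjusted p = 3.02e-05). With decitabine the values were 1006, 727 and 714 FPKM and, with siCHD4 added, 560.4, 513 and 517 (log2 change -0.60, adjusted p = 0.0135). All siCHD4 libraries lay below their controls for both genes. Neither gene passed the test with siDNMT1 or decitabine against control siRNA, although all 3 siDNMT1 libraries lay below the 3 controls for both. KRT8 and KRT18 held ranks 141 to 310 of all named genes in the 18 libraries, so both remained abundant transcripts at their lowest. RNA from a whole culture does not tell fewer cells with a transcript from less of it per cell. The 5' part of the KRT8 locus as annotated overlaps KRT18 on the opposite strand, and whether fragments were counted by strand is not given in the sources used here. With decitabine as background neither call held after quantile normalization (KRT18 -0.39, adjusted p = 0.0702; KRT8 -0.22, adjusted p = 0.266) or in a fit on those 6 libraries alone (adjusted p = 0.106 and 0.151), and that of KRT8 was also lost without siCHD4 plus decitabine replicate 1 (adjusted p = 0.0651).

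**Figure D3:**
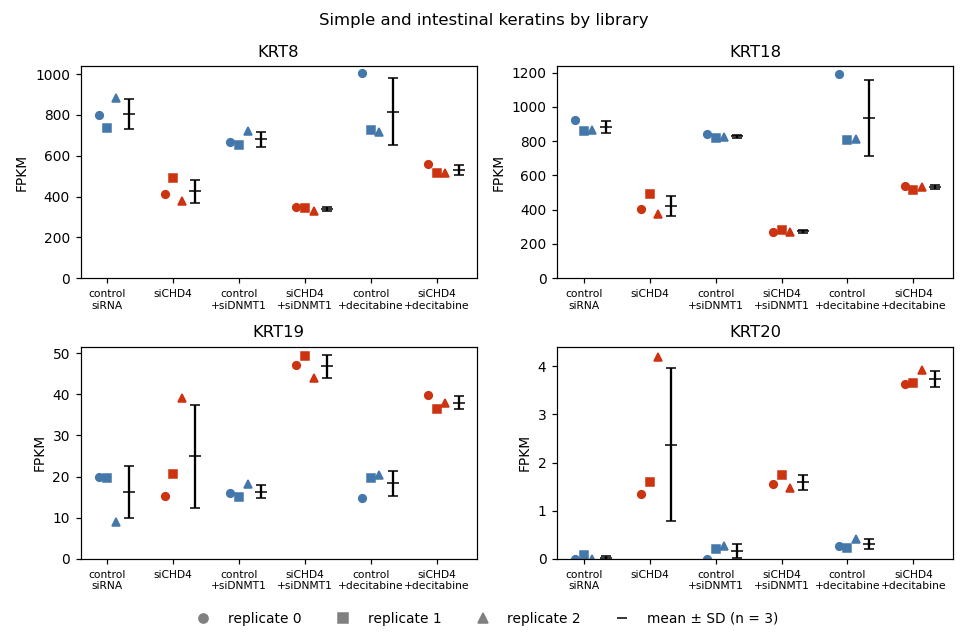
FPKM of KRT8, KRT18, KRT19 and KRT20 in each of the 18 libraries, with the mean and SD of each group of 3 (circle, square and triangle for replicates 0, 1 and 2; blue for control siRNA and red for siCHD4). KRT8 and KRT18 are lower and KRT20 is higher with siCHD4 in each background, while KRT19 overlaps between the groups without siDNMT1 or decitabine.

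KRT18 fell further than KRT8 in the siDNMT1 background. The ratio of KRT18 to KRT8 FPKM was 1.14 to 1.26 with siDNMT1 and 0.766 to 0.828 with siCHD4 plus siDNMT1, without overlap. It was 0.984 to 1.17 with control siRNA and 0.9746 to 1.002 with siCHD4, which overlap, and 1.11 to 1.19 with decitabine and 0.965 to 1.03 with siCHD4 plus decitabine. For KRT18 the siCHD4 change in the siDNMT1 background exceeded that in the decitabine background (difference -0.80, SE 0.19, adjusted p = 0.0234). The call did not hold without control siRNA plus siDNMT1 replicate 0 or 1, siCHD4 plus siDNMT1 replicate 0 or 2, or siCHD4 plus decitabine replicate 2, where the difference was -0.80 to -0.78 with adjusted p of 0.0546 to 0.0637. The difference from siCHD4 alone was -0.52 (adjusted p = 0.145), and -0.60 (adjusted p = 0.0356) without siCHD4 replicate 2. CHD4 itself was depleted less in the decitabine background, and what part that had was not tested.

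The share of KRT8 and KRT18 among the keratin transcripts differed between groups. The pair made up 97.6% to 98.1% of summed keratin FPKM with control siRNA and 91.8% to 95.8% with siCHD4. With siDNMT1 the share was 92.5% to 93.1%, and with siCHD4 added 81.1% to 81.7%. With decitabine it was 91.4% to 91.9%, and with siCHD4 added 85.5% to 86.2%. The other keratins together came to 33.6 to 41.5 FPKM with control siRNA, 36.1 to 67.1 with siCHD4, 112 to 126 with siDNMT1 and 134 to 199.6 with decitabine. With siCHD4 added these sums were 138 to 146 in the siDNMT1 background and 168 to 179 in the decitabine background. The number of keratins at 1 FPKM or more was 9 in each control siRNA and each siCHD4 library, 11 to 12 with siDNMT1, 11 to 13 with decitabine, 14 with siCHD4 plus siDNMT1, and 14 to 16 with siCHD4 plus decitabine.

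**Figure D4:**
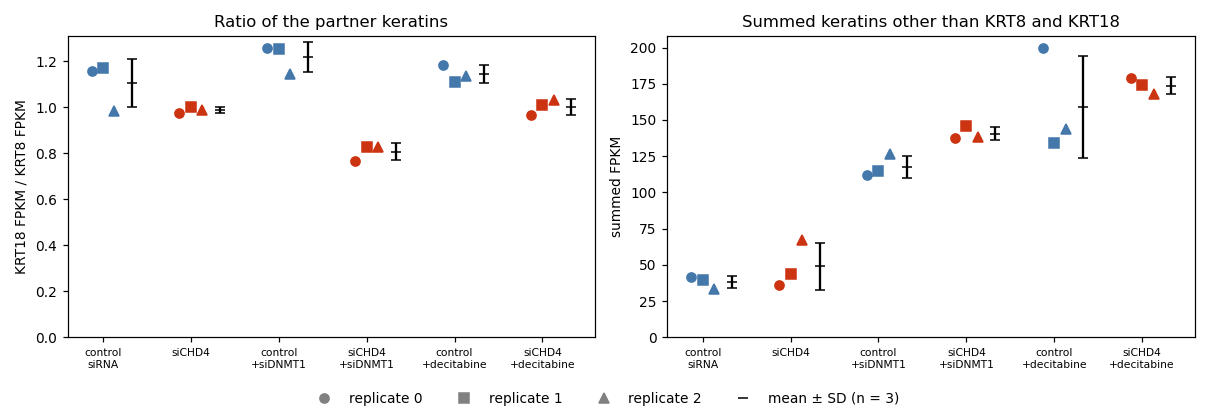
Left, the ratio of KRT18 to KRT8 FPKM, and right, the summed FPKM of all keratins other than this pair, in each of the 18 libraries with the mean and SD of each group of 3. The ratio is lowest with siCHD4 plus siDNMT1 (0.766 to 0.828), and the sum is higher in all 12 libraries with siDNMT1 or decitabine than in the 6 without.

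KRT19, the small simple keratin that lacks most of the tail domain (chromosome 17, 39679869 to 39684560, minus strand), moved opposite to KRT18 in the siDNMT1 background. It stood at 16.0, 15.0 and 18.1 FPKM with siDNMT1 and at 47.0, 49.4 and 43.9 with siCHD4 added, a 2.86-fold rise (log2 change 1.46, SE 0.29, adjusted p = 0.000762). With decitabine it was at 14.8, 19.7 and 20.5 FPKM and, with siCHD4 added, at 39.7, 36.4 and 37.8. The groups did not overlap, but the change just missed the threshold (1.02, adjusted p = 0.0548), which it passed in a fit on those 6 libraries alone (adjusted p = 0.0288). Without either treatment the libraries overlapped: 19.99, 19.7 and 9.04 FPKM with control siRNA and 15.3, 20.5 and 39.0 with siCHD4 (0.56, adjusted p = 0.18). Here both replicates 2 stood apart, and without them the change was -0.15 (adjusted p = 0.511). The siCHD4 effect with siDNMT1 exceeded that of siCHD4 alone by 0.90 (adjusted p = 0.238), which became 1.26 (adjusted p = 0.0167) without siCHD4 replicate 2 and 1.62 (adjusted p = 0.000256) without both replicates 2. In the decitabine background the same difference was 0.46 (adjusted p = 0.62), and 1.18 (adjusted p = 0.00626) without both.

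KRT7, a simple keratin of ducts and other glandular epithelia that normal colon largely lacks (chromosome 12, 52626304 to 52645970, plus strand), was low throughout. It was at 1.31, 0.909 and 0.729 FPKM with siDNMT1 and at 1.98, 2.16 and 2.16 with siCHD4 added (log2 change 0.66, SE 0.24, adjusted p = 0.0318). The other 12 libraries ranged from 0.231 FPKM (siCHD4 replicate 0) to 2.38 (decitabine replicate 0), with overlapping groups. The KRT7 call was weak: it was lost after quantile normalization (0.36, adjusted p = 0.203), with a pseudocount of 0.1 (1.06, adjusted p = 0.0671), and without any single library of the pair other than control siRNA plus siDNMT1 replicate 0 (0.56 to 0.68, adjusted p = 0.0615 to 0.104).

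KRT20, the keratin of differentiated gut epithelium (chromosome 17, 39032141 to 39041494, minus strand; promoter printed above), was nearly silent without siCHD4 and was detected in all 9 siCHD4 libraries. With control siRNA it was listed at 0, 0.0723 and 0 FPKM and with siCHD4 at 1.34, 1.59 and 4.19. The groups were apart, and replicate 2 carried the highest level of the 18 libraries (log2 change 1.62, SE 0.21, adjusted p = 0.000128). In the siDNMT1 background the values were 0, 0.213 and 0.273 FPKM and, with siCHD4 added, 1.55, 1.75 and 1.46 (log2 change 1.16, adjusted p = 0.000437). With decitabine they were 0.278, 0.227 and 0.420 FPKM and, with siCHD4 added, 3.63, 3.65 and 3.92 (log2 change 1.86, adjusted p = 5.56e-05). The siCHD4 effects on KRT20 did not differ between backgrounds beyond the threshold, the largest difference being 0.70 lower with siDNMT1 than with decitabine (-0.70, 95% interval -1.33 to -0.06, adjusted p = 0.138, and 0.0183 in a fit on those 4 groups alone). Against control siRNA, KRT20 did not pass with siDNMT1 or decitabine. Each of its 3 siCHD4 calls held under every alternative run in which the gene was tested. KRT20 reached 1 FPKM in the 9 siCHD4 libraries only, so it was tested through the groups where it was high. KRT20 reached at most 4.19 FPKM, so it stayed far below KRT8 and KRT18.

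Of the other epithelial keratins KRT23 rose with decitabine and KRT80 passed in no comparison. KRT23, a type I keratin (chromosome 17, 39078952 to 39093898, minus strand), was at 0, 0.119 and 0.666 FPKM with control siRNA and at 3.90, 0.874 and 0.593 with decitabine. It passed the test (log2 change 0.99, SE 0.31, adjusted p = 0.0366) although the groups overlapped. Without decitabine replicate 0, the shallow library, the change was 0.49 (adjusted p = 0.102), and the call was also lost without control siRNA replicate 0 (0.84, adjusted p = 0.128) or 1 (0.92, adjusted p = 0.113). With siDNMT1 KRT23 was at 1.43, 1.23 and 1.29 FPKM, above every control library, which did not pass (0.91, adjusted p = 0.0721) unless control siRNA replicate 2 was left out (1.13, adjusted p = 0.0496) or only these 2 groups were fitted (adjusted p = 0.02). Adding siCHD4 to siDNMT1 took KRT23 to 1.89, 2.44 and 2.59 FPKM, above its controls. This did not pass (0.51, adjusted p = 0.183) except in a fit on that pair alone (adjusted p = 0.00478). In the other backgrounds its siCHD4 and control libraries overlapped. KRT80, a widely expressed type II keratin (chromosome 12, 52562780 to 52585798, minus strand), ranged from 2.30 to 9.01 FPKM over the 18 libraries and passed in none of the 8 comparisons (0 at an unadjusted p under 0.05). In a fit on control siRNA and siDNMT1 alone it was 0.40 higher with siDNMT1 (adjusted p = 0.0246). KRT222 did not exceed 0.0741 FPKM in any library.

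Among the stratified keratins, KRT5, the basal-layer type II keratin (chromosome 12, 52908359 to 52914314, minus strand; promoter printed above), had the highest level of the 4 tested and the largest change on the log2(FPKM + 1) scale (by the fold of group means KRT17 changed more). It was at 5.97, 5.13 and 7.14 FPKM with control siRNA, at 51.9, 56.1 and 64.1 with siDNMT1 and at 75.7, 70.5 and 78.7 with decitabine. Every treated library lay above every control, by 9.44-fold for the siDNMT1 mean (log2 change 3.05, SE 0.30, adjusted p = 4.92e-06) and 12.3-fold for the decitabine mean (3.43, SE 0.30, adjusted p = 1.46e-06). Both calls held under every alternative run. Adding siCHD4 lowered KRT5 in the siDNMT1 background, to 30.2, 27.7 and 32.0 FPKM, which is 52.2% of its control (log2 change -0.91, SE 0.30, adjusted p = 0.021). That call was lost without control siRNA plus siDNMT1 replicate 2 (-0.83, adjusted p = 0.0659) or without siCHD4 plus siDNMT1 replicate 0 (-0.92, adjusted p = 0.0507) or 1 (-0.86, adjusted p = 0.0575). With decitabine KRT5 was at 57.0, 54.1 and 50.3 FPKM with siCHD4, below every control library there, but did not pass (-0.47, adjusted p = 0.399). With siCHD4 alone it was at 2.76, 3.25 and 11.6 FPKM, so replicates 0 and 1 lay below the 3 controls and replicate 2 above them (-0.26, adjusted p = 0.579). Without siCHD4 replicate 2 the change was -0.81 (adjusted p = 0.000517), without both replicates 2 it was -0.71 (adjusted p = 0.00137), and without siCHD4 replicate 0 it was 0.06 (adjusted p = 0.925).

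KRT14, the usual type I partner of KRT5, did not follow to a comparable level: it peaked at 1.27 FPKM (decitabine replicate 2), was listed at 0 in the 3 siCHD4 libraries and was too low to be tested. KRT17, a type I keratin of hair follicles and activated skin (chromosome 17, 39775694 to 39781094, minus strand), was listed at 0.0790, 0.0846 and 0 FPKM with control siRNA and rose in all 5 comparisons. It was at 0.602, 0.746 and 1.04 FPKM with siDNMT1 (log2 change 0.76, SE 0.14, adjusted p = 0.00213) and at 1.30, 2.21 and 1.47 with decitabine (1.32, SE 0.14, adjusted p = 1.23e-05). With siCHD4 it was at 0.404, 0.530 and 0.563 FPKM alone (0.51, adjusted p = 0.0215), at 1.74, 1.89 and 1.97 with siDNMT1 (0.68, adjusted p = 0.00119), and at 6.78, 4.45 and 5.61 with decitabine (1.31, adjusted p = 3.32e-05). Groups did not overlap in any of these 5 pairs, and the levels with siCHD4 plus decitabine exceeded those of the other 15 libraries. KRT17 was under 1 FPKM in every library without siDNMT1 or decitabine, so it was tested through the groups where it was high. The call with siCHD4 alone was lost without any 1 of the 3 control siRNA libraries (0.47 to 0.53, adjusted p = 0.0513 to 0.0623) or without siCHD4 replicate 2 (0.48, adjusted p = 0.0575). The call with decitabine and that of siCHD4 with decitabine held under every alternative run in which the gene was tested. Quantile normalization ended the KRT17 calls with siCHD4 alone (0.26, adjusted p = 0.298), with siDNMT1 (0.42, adjusted p = 0.132) and with siCHD4 in the siDNMT1 background (0.38, adjusted p = 0.0669).

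KRT16, a type I keratin of stressed skin next to KRT17 (chromosome 17, 39766030 to 39772151, minus strand), was lowered by siCHD4 alone and raised by it in the siDNMT1 background. It was at 2.65, 2.30 and 2.50 FPKM with control siRNA and at 0.594, 0.576 and 0.437 with siCHD4, a fall to 21.6% (log2 change -1.18, SE 0.16, adjusted p = 0.000187). With siDNMT1 it was at 2.52, 2.63 and 2.67 FPKM, and with siCHD4 added at 3.47, 4.28 and 4.34, a rise (0.48, SE 0.16, adjusted p = 0.0225). The difference between these siCHD4 effects was 1.66 (SE 0.23, adjusted p = 0.000306; 2.83% of all tested genes had a positive and 1.29% a negative difference that passed), and it held under every alternative run in which the gene was tested. KRT16 was the 1 keratin called in that comparison, with 3 positive and 3 negative differences at an unadjusted p under 0.05. With decitabine it was at 5.89, 3.45 and 2.98 FPKM, above the controls (0.51, adjusted p = 0.037), and with siCHD4 added at 2.59, 3.09 and 2.15, which overlaps (-0.47, adjusted p = 0.124). The siCHD4 effect with siDNMT1 exceeded that with decitabine by 0.94 (SE 0.23, adjusted p = 0.0242). That last difference was lost without control siRNA plus siDNMT1 replicate 0 or 1, siCHD4 plus siDNMT1 replicate 2 or siCHD4 plus decitabine replicate 2 (0.85 to 0.95, adjusted p = 0.0576 to 0.0764). The decitabine call did not hold without decitabine replicate 0 (0.28, adjusted p = 0.121) or without any 1 of the control siRNA libraries (0.47 to 0.55, adjusted p = 0.0689 to 0.116). The rise with siCHD4 in the siDNMT1 background was lost without control siRNA plus siDNMT1 replicate 0 or 1 or siCHD4 plus siDNMT1 replicate 1 or 2 (0.43 to 0.48, adjusted p = 0.0513 to 0.0766). The value with siCHD4 plus decitabine passed without control siRNA plus decitabine replicate 2 (-0.62, adjusted p = 0.041). KRT16, KRT17 and KRT14 are close in sequence and have pseudogene copies, so how reads were shared among them is uncertain. KRT10, a type I keratin of the upper skin layers (chromosome 17, 38974369 to 38978866, minus strand), ranged from 2.15 to 4.98 FPKM and passed in none of the 8 comparisons (2 at an unadjusted p under 0.05), but was lower with siCHD4 plus siDNMT1 in a fit on that pair alone (-0.30, adjusted p = 0.0474).

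The hair keratins were low with control siRNA (at most 3.16 FPKM). Of the 4 tested, 4 rose with decitabine (9.6% of all tested genes) and 3 with siDNMT1 (6.94%). KRT31 and KRT85 reached 1 FPKM in no control siRNA library, so they were tested only because other groups were higher. KRT31, a type I hair keratin of the cortex (chromosome 17, 39549973 to 39553860, minus strand; promoter printed above), was at 0.311, 0.333 and 0.155 FPKM with control siRNA. With siDNMT1 it reached 8.53, 7.34 and 8.24 FPKM (log2 change 2.84, SE 0.19, adjusted p = 5.24e-08) and with decitabine 12.2, 8.29 and 7.39 (3.00, SE 0.19, adjusted p = 3.66e-08). All 6 treated libraries lay above the 3 controls, and both calls held under every alternative run. With siCHD4 alone it stayed low, at 0.646, 0.783 and 0 FPKM. With siCHD4 added to decitabine it rose further, to 30.6, 33.0 and 27.6 FPKM, 3.28-fold over its control (log2 change 1.64, SE 0.19, adjusted p = 6.78e-05). With siCHD4 added to siDNMT1 it was at 11.5, 12.9 and 12.8 FPKM, 1.55-fold over its control (0.57, adjusted p = 0.0207).

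The siCHD4 effect on KRT31 was thus larger with decitabine than alone (difference 1.46, SE 0.27, adjusted p = 0.0145; 0.773% of all tested genes passed with a positive and 0.383% with a negative difference). KRT31 was the 1 keratin called in that comparison, where 4 keratins had a positive and 0 a negative difference at an unadjusted p under 0.05. The call was lost with a pseudocount of 0.1 (1.55, adjusted p = 0.367) and in a fit on those groups alone (adjusted p = 0.0956). The effect was smaller with siDNMT1 than with decitabine (-1.06, SE 0.27, adjusted p = 0.029). In this last comparison KRT16 passed with a positive difference, as did 4.16% of all tested genes, and KRT31, KRT85 and KRT18 with a negative one, as did 4.24%. With a pseudocount of 0.1 in place of 1, KRT31 no longer passed with siCHD4 plus decitabine (1.73, adjusted p = 0.103) or siCHD4 plus siDNMT1 (0.62, adjusted p = 0.367). The call with siCHD4 plus siDNMT1 was also lost without control siRNA plus siDNMT1 replicate 1, or siCHD4 plus siDNMT1 replicate 1 or 2 (0.52 to 0.55, adjusted p = 0.0549 to 0.0698). The difference of -1.06 was lost with a pseudocount of 0.1 (-1.11, adjusted p = 0.369). It was also lost when any 1 library of those 4 groups was left out, except control siRNA plus decitabine replicates 0 and 1 and siCHD4 plus siDNMT1 replicate 1 (-1.13 to -0.93, adjusted p = 0.052 to 0.0775).

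KRT81, a type II hair keratin of the cortex (chromosome 12, 52679697 to 52685318, minus strand), was at 1.33, 0.882 and 3.16 FPKM with control siRNA. It reached 14.9, 15.0 and 14.8 FPKM with siDNMT1 (log2 change 2.59, SE 0.41, adjusted p = 0.000547) and 57.7, 15.9 and 17.2 with decitabine (3.31, SE 0.41, adjusted p = 5.29e-05). The shallow decitabine replicate 0 was far above the other libraries, and the call held without it as under every other alternative run. With siCHD4 alone KRT81 was at 4.70, 5.10 and 1.61 FPKM, which overlaps the control (0.77, adjusted p = 0.202), and without both replicates 2 it was 1.49 higher (adjusted p = 0.0272). With siCHD4 added it was at 21.6, 27.4 and 20.8 FPKM in the siDNMT1 background (0.60, adjusted p = 0.24, and 0.00208 in a fit on that pair alone) and at 20.1, 19.9 and 22.5 in the decitabine background. KRT86, whose annotated span encloses KRT81 on the opposite strand (chromosome 12, 52643084 to 52702947, plus strand), was at 1.83, 1.10 and 1.54 FPKM with control siRNA and at 8.50, 3.28 and 3.00 with decitabine (1.14, SE 0.23, adjusted p = 0.00364). Without decitabine replicate 0 this change was 0.74 (adjusted p = 0.0231), and in a fit on those 6 libraries alone it did not pass (adjusted p = 0.103). With siDNMT1 it was at 2.84, 2.82 and 2.95 FPKM, above the controls, but did not pass (0.64, adjusted p = 0.0946) except in a fit on those 6 libraries alone (adjusted p = 0.014). KRT81 and KRT86 are near-identical in sequence and overlap, so the division of reads between them is uncertain.

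KRT85, a type II hair keratin of the hair matrix (chromosome 12, 52753790 to 52761265, minus strand), was under 1 FPKM in 5 of the 6 groups. It was at 0.236, 0.202 and 0.471 FPKM with control siRNA, at 0.721, 0.545 and 0.810 with siDNMT1 (log2 change 0.38, adjusted p = 0.0392) and at 0.973, 0.742 and 0.713 with decitabine (0.48, adjusted p = 0.00868). Adding siCHD4 took it to 0.346, 0.377 and 0.157 FPKM in the siDNMT1 background, a fall (-0.39, adjusted p = 0.00977), and to 1.54, 1.30 and 1.49 in the decitabine background, a rise (0.44, adjusted p = 0.0364). The groups of each pair did not overlap, and the difference between the siCHD4 effects was -0.82 (SE 0.16, adjusted p = 0.00854). KRT85 reached 1 FPKM only with siCHD4 plus decitabine. It was thus tested only because it was high in a group that the rise and this difference use. That difference held under every alternative run in which the gene was tested. The fall was lost without siCHD4 plus siDNMT1 replicate 2 (-0.31, adjusted p = 0.0549), and the rise with siCHD4 plus decitabine without any 1 of its 3 libraries or of control replicates 1 and 2 (0.40 to 0.48, adjusted p = 0.0727 to 0.145). The siDNMT1 call was lost without control siRNA replicate 0 or 1 or control siRNA plus siDNMT1 replicate 0 or 2 (0.32 to 0.37, adjusted p = 0.114 to 0.149). After quantile normalization KRT85 passed with neither siDNMT1 (0.03, adjusted p = 0.885) nor decitabine (0.12, adjusted p = 0.418).

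**Figure D5:**
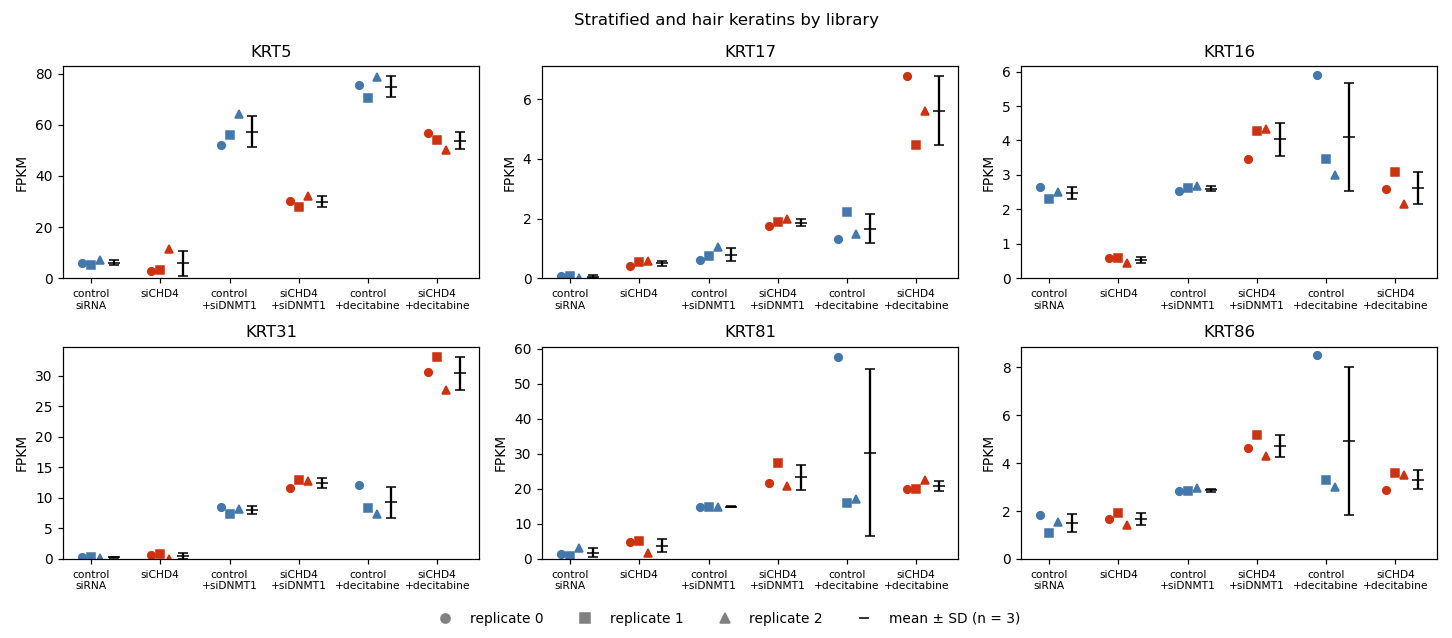
FPKM of KRT5, KRT17, KRT16, KRT31, KRT81 and KRT86 in each of the 18 libraries, with the mean and SD of each group of 3 (blue for control siRNA, red for siCHD4). KRT5 and KRT81 are low in the 6 libraries without siDNMT1 or decitabine, with siCHD4 replicate 2 the highest of these for KRT5, KRT31 is highest with siCHD4 plus decitabine (27.6 to 33.0 FPKM), and decitabine replicate 0 is the highest library for KRT81 and KRT86.

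Of the 40 keratins not tested, KRT13 and KRT14 reached 1 FPKM in some library (at most 1.19 and 1.27) and 38 stayed below 1 FPKM in all 18. The 9 inner root sheath keratins did not exceed 0.232 FPKM and the 13 untested hair keratins 0.332 FPKM. With no filter on low values, 46 keratins could be fitted, and 4 of the 5 comparisons, all but siCHD4 alone, added calls among low genes. KRT12, the keratin of the cornea, was listed at 0 in the 3 siDNMT1 libraries with control siRNA and at 0.783 ± 0.210 FPKM (SD, n = 3) with siCHD4 added. KRT79 was at 0.0583 ± 0.00279 and 0.584 ± 0.104 FPKM in the same groups, and with decitabine it went from 0.0172 ± 0.0298 to 0.244 ± 0.0601 FPKM with siCHD4 added. KRT6A, a keratin of activated skin, was at 0.0332 ± 0.0288 FPKM with control siRNA, 0.678 ± 0.165 with siDNMT1, 0.343 ± 0.124 with siCHD4 plus siDNMT1 and 0.364 ± 0.205 with decitabine, and was called in the comparisons of siDNMT1 and of decitabine with control siRNA and of siCHD4 in the siDNMT1 background. KRT6B was listed at 0 with control siRNA and at 0.139 ± 0.0305 FPKM with siDNMT1. KRT13 and KRT14 were also called with decitabine in that fit, from 0.196 ± 0.0781 to 0.745 ± 0.202 FPKM and from 0.153 ± 0.0727 to 0.830 ± 0.385 FPKM. In that fit 23.4% of all genes rose and 15.4% fell with siCHD4 in the siDNMT1 background, 3.39% rose with siCHD4 in the decitabine background, 4.98% with siDNMT1 and 6.32% with decitabine. KRT6A, KRT6B and KRT6C are near-identical copies, so the levels of KRT6A and KRT6B are uncertain.

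The proteins that anchor keratin filaments were read next, as lists from general knowledge. As with the keratins, members that reached 1 FPKM in few groups only had to differ between groups to be tested. Of 15 tested filament partners and desmosome genes 4 rose and 1 fell with siCHD4 alone, where 9.58% of all tested genes rose and 9.71% fell. In the siDNMT1 background 9 rose and 2 fell (24.8% and 24.6% of all), and in the decitabine background 3 rose and 0 fell (3.26% and 1.31%). With siDNMT1 1 rose and 0 fell (6.94% and 4.4%), and with decitabine 2 rose and 2 fell (9.6% and 8.63%). In both cases of 0 in limma, 1 was lower at an unadjusted p under 0.05. Periplakin (PPL), a plakin that binds KRT8, went from 8.66 ± 1.05 to 25.3 ± 7.08 FPKM with siCHD4 (SD, n = 3; log2 change 1.42, adjusted p = 1.46e-05), from 11.0 ± 1.25 to 50.0 ± 3.86 in the siDNMT1 background (2.09, adjusted p = 6.26e-08) and from 15.4 ± 1.26 to 27.0 ± 0.251 in the decitabine background (0.77, adjusted p = 0.00462). Epiplakin (EPPK1), which binds keratin filaments, rose by 1.44 (adjusted p = 0.000355) alone and 1.70 (adjusted p = 1.95e-05) with siDNMT1, and was 25.8 ± 6.38 and 37.2 ± 5.64 FPKM in the decitabine background, which did not pass (adjusted p = 0.182). PERP, a desmosomal membrane protein, rose in all 3 backgrounds by 0.64 to 0.76, but did not pass in a fit on the 6 libraries alone without siDNMT1 (adjusted p = 0.0921) or with decitabine (adjusted p = 0.0952). DSG4, the desmoglein of the hair shaft, rose with siCHD4 in the siDNMT1 background from 0.515 ± 0.0781 to 1.51 ± 0.184 FPKM. It reached 1 FPKM only with siCHD4 plus siDNMT1, so it was tested only because it was high there.

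Hemidesmosome genes, whose products tie keratin filaments to the basement membrane, rose in 3 of 8 tested cases with siCHD4 alone (9.58% of all tested genes), 6 with siDNMT1 (24.8%) and 4 with decitabine (3.26%), and 0 fell in these 3 in limma (9.71%, 24.6% and 1.31% of all). With siDNMT1 itself 2 rose (6.94% of all) and 0 fell (0 were lower at an unadjusted p under 0.05 in all 4), and with decitabine 1 rose and 1 fell (9.6% and 8.63%). LAMA3, the laminin-332 alpha chain, rose by 1.21 (adjusted p = 3.33e-07) with siCHD4 alone, 1.22 (adjusted p = 6.26e-08) with siDNMT1 and 1.13 (adjusted p = 8.72e-07) with decitabine. DST, the plakin dystonin, also rose in all 3 backgrounds, by 0.51, 0.73 and 0.78. In fits on the 6 libraries of a pair alone, DST did not pass with siCHD4 alone (adjusted p = 0.0547) or with decitabine (adjusted p = 0.11), and its call with siCHD4 alone was also lost without control siRNA replicate 0 or siCHD4 replicate 2. LAMB3 rose in the siDNMT1 background, from 31.6 ± 2.99 to 66.5 ± 1.79 FPKM.

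Of 8 tested other intermediate filament genes 1 rose and 1 fell with siCHD4 alone (9.58% and 9.71% of all tested genes), 3 and 1 with siDNMT1 (24.8% and 24.6%), and 1 and 0 with decitabine (3.26% and 1.31%). With siDNMT1 itself 3 rose and 1 fell (6.94% and 4.4%), and with decitabine itself 2 and 1 (9.6% and 8.63%). Where 0 fell, 1 was lower at an unadjusted p under 0.05. Desmin (DES), the muscle filament protein, was the member that rose in all 3 siCHD4 comparisons, from 0.109 ± 0.0586 to 1.91 ± 1.21 FPKM alone, 0.123 ± 0.108 to 5.08 ± 0.875 with siDNMT1 and 0.232 ± 0.177 to 2.45 ± 0.506 with decitabine. Alone, it did not pass in a fit on those 6 libraries (adjusted p = 0.0651). DES reached 1 FPKM only in siCHD4 libraries, so it was tested through groups where it was high. Vimentin (VIM), the mesenchymal filament protein, went from 2.67 ± 0.547 to 6.58 ± 0.399 FPKM with siCHD4 in the siDNMT1 background (adjusted p = 0.00281; 0.154 with a pseudocount of 0.1). The nuclear lamin LMNA rose by 0.61 and LMNB2 fell by 0.59 with siCHD4 in the siDNMT1 background.

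Cornified envelope genes, which build the outer skin barrier, were mostly too low to test (5 of 20 tested). With siCHD4 0 rose and 1 fell alone (9.58% and 9.71% of all tested genes), 2 and 1 with siDNMT1 (24.8% and 24.6%), and 1 and 0 with decitabine (3.26% and 1.31%). With siDNMT1 itself 2 rose and 1 fell (6.94% and 4.4%), and with decitabine itself 1 and 1 (9.6% and 8.63%). At an unadjusted p under 0.05, 0 were higher with siCHD4 alone and 2 lower with it in the decitabine background. S100A7, psoriasin, was listed at 0 in the 6 libraries without siDNMT1 or decitabine and rose with siCHD4 from 0.164 ± 0.284 to 9.36 ± 0.777 FPKM in the siDNMT1 background (log2 change 3.18, adjusted p = 8.82e-09) and from 0.175 ± 0.304 to 3.21 ± 0.606 in the decitabine background (1.86, adjusted p = 8.74e-06). S100A7 reached 1 FPKM only with siCHD4 plus siDNMT1 or decitabine, so it was tested through groups where it was high. KLK7, a protease that cleaves skin desmosomes, fell with siCHD4 alone from 359.8 ± 19.98 to 221 ± 24.9 FPKM, and KLK5 rose from 2.20 ± 0.539 to 26.2 ± 2.51 FPKM with siDNMT1. CDSN, corneodesmosin, rose with siCHD4 in the siDNMT1 background to 1.72 ± 0.326 FPKM. Only because of that group did CDSN reach 1 FPKM in at least 3 libraries.

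Of 6 tested hair follicle regulators 4 rose with siDNMT1 (6.94% of all tested genes) and 2 with decitabine (9.6%) and 0 fell (4.4% and 8.63% of all; in limma 1 and 0 lower at an unadjusted p under 0.05). With siCHD4 0 rose and 1 fell alone (9.58% and 9.71% of all), 3 and 0 with siDNMT1 (24.8% and 24.6%), and 0 and 1 with decitabine (3.26% and 1.31%; unadjusted, 1 higher alone, 0 lower with siDNMT1 and 2 higher with decitabine). MSX1 and MSX2, homeobox genes of the follicle, rose by 0.57 and 0.46 with siDNMT1 and by 0.95 and 0.49 with decitabine. With siCHD4 added to decitabine MSX1 fell, from 38.2 ± 2.48 to 24.3 ± 1.28 FPKM. In the siDNMT1 background siCHD4 raised MSX2 from 99.3 ± 4.34 to 130 ± 4.28 FPKM. HOXC13, a regulator of hair keratin genes, was at 1.69 ± 0.411 FPKM with control siRNA, fell to 0.954 ± 0.189 with siCHD4 alone, and rose to 3.00 ± 0.549 with siDNMT1. The fall was lost without control siRNA replicate 1 or siCHD4 replicate 1 or 2 (adjusted p = 0.0591 to 0.128) and in a fit on those 6 libraries (adjusted p = 0.11), and the rise without control siRNA replicate 0 or control siRNA plus siDNMT1 replicate 1 (adjusted p = 0.055 and 0.0629) and after quantile normalization (adjusted p = 0.0563). In the other backgrounds HOXC13 was higher with siCHD4. Adding siCHD4 to siDNMT1 raised it to 4.31 ± 0.497 FPKM, a call lost in 4 of 12 alternatives. With decitabine it went from 2.31 ± 0.275 to 3.47 ± 0.434 FPKM with siCHD4 added, which did not pass. EDAR, the ectodysplasin receptor, rose by 0.82 with siDNMT1, to 33.1 ± 0.785 FPKM, and further to 41.6 ± 0.998 FPKM with siCHD4 added. FOXN1, another regulator of hair keratins, had group means of at most 0.555 FPKM and was not tested. Of 91 keratin-associated protein genes, which make the matrix around hair keratins, 1 was tested: KRTAP3-1 was listed at 0 in the 3 control siRNA libraries, at 1.31 ± 0.588 FPKM with siDNMT1 and at 3.90 ± 0.511 with siCHD4 added (adjusted p = 0.0281 for the last step). That step did not pass with a pseudocount of 0.1 (adjusted p = 0.11), after quantile normalization (adjusted p = 0.0698), or without control siRNA plus siDNMT1 replicate 0 or 1 or siCHD4 plus siDNMT1 replicate 0 or 2 (adjusted p = 0.0673 to 0.0918).

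Of 17 tested epithelial transcription factors 2 rose and 5 fell with siCHD4 alone (9.58% and 9.71% of all tested genes), 5 and 3 with siDNMT1 (24.8% and 24.6%), and 1 and 3 with decitabine (3.26% and 1.31%). With siDNMT1 itself 2 rose and 2 fell (6.94% and 4.4%), and with decitabine itself 2 and 3 (9.6% and 8.63%). ELF5, an ETS factor of glandular and skin epithelia, rose from 3.35 ± 0.899 FPKM to 40.7 ± 1.73 with siDNMT1 (log2 change 3.28, adjusted p = 3.61e-09) and to 19.2 ± 3.77 with decitabine (2.21, adjusted p = 3.24e-07). It fell with siCHD4 in both, to 8.51 ± 0.895 and 7.40 ± 1.37 FPKM, and with siCHD4 alone, to 1.82 ± 0.431 FPKM (-0.62, adjusted p = 0.0206). The last call was lost without control siRNA replicate 2 (adjusted p = 0.0845), siCHD4 replicate 2 (0.0772) or both (0.198), and in a fit on those 6 libraries (0.117). HNF4A, a factor of gut and liver epithelium, rose with siCHD4 from 7.55 ± 0.505 to 15.7 ± 0.687 FPKM with siDNMT1 and from 8.83 ± 1.44 to 13.5 ± 1.06 with decitabine. It was at 11.8 ± 1.79 FPKM with control siRNA and 12.9 ± 1.61 with siCHD4 alone, which did not pass. Against control siRNA, HNF4A fell with siDNMT1 and with decitabine, the latter call being lost in 8 of 14 alternatives. OVOL2, an epithelial zinc finger factor, fell with siCHD4 in all 3 backgrounds by 0.70, 0.56 and 0.50, and so did EHF, a further ETS factor. EHF went from 111 ± 4.67 to 32.4 ± 3.93 FPKM with siCHD4 alone (log2 change -1.76, adjusted p = 1.4e-06), from 87.8 ± 4.22 to 20.5 ± 0.664 in the siDNMT1 background (-2.05, adjusted p = 6.58e-08) and from 71.4 ± 17.9 to 39.4 ± 2.53 in the decitabine background (-0.81, adjusted p = 0.00286). The EHF calls with siCHD4 alone and with siDNMT1 held under every alternative run. In the decitabine background the siCHD4 calls of HNF4A, OVOL2 and EHF were lost in a fit on those 6 libraries alone (adjusted p = 0.128, 0.12 and 0.128), and those of HNF4A and OVOL2 without siCHD4 plus decitabine replicate 1 (adjusted p = 0.0863 and 0.0616).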

How the data were processed

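The deposited table holds FPKM values computed by the authors, 1 column for each of the 18 libraries. Per the submitters' processing notes, TopHat2 2.0.9, Cuffdiff 2.1.1 and the build hg19 were used. The sources used here do not give the annotation, filters, strand setting or scaling. Per the labels' protocols, stranded total RNA libraries were made after ribosomal RNA removal. Of 23599 rows, 28 with a date as name were left out.

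All tests used log2(FPKM + 1), a scale that understates changes of low genes. Genes at 1 FPKM or more in at least 3 libraries (12809) were tested with limma 3.58.1 (R 4.3.3), with 1 mean per group over all 18 libraries, 12 residual degrees of freedom and a trend in the mean. The two-sided p-values were adjusted by Benjamini-Hochberg over all tested genes and called under 0.05. The script was tested on simulated data. Tested keratins are all named, untested ones where they reach 1 FPKM or are called without the filter, and at most 4 genes per partner list, those of smallest p in the siCHD4 comparisons (KRT222, FOXN1 and marker genes are named besides, and 1 gene chosen by this rule is not reported here). The keratins, classes, markers and lists were chosen with earlier results of these data known. Positions come from GENCODE v44 lifted to GRCh37, which holds all 55 genes. Alternatives are under the closing section.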

Additional observations from a re-analysis of the deposited data

Results flagged for a closer look

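For 4 keratins the effect of siCHD4 differed between backgrounds by limma's test of the difference itself (log2 scale, adjusted p-values). The siCHD4 change of KRT16 was -1.18 alone, 0.48 with siDNMT1 and -0.47 with decitabine (not past the threshold), so it fell alone and rose with siDNMT1. The change with siDNMT1 minus that alone was 1.66 (0.000306) and minus that with decitabine 0.94 (0.0242). The change of KRT31 with decitabine minus that alone was 1.46 (0.0145), and its change with siDNMT1 minus that with decitabine was -1.06 (0.029). The same difference was -0.82 for KRT85 (0.00854) and -0.80 for KRT18 (0.0234). KRT85 was tested only because it reached 1 FPKM with siCHD4 plus decitabine, a group that its difference uses. The days of siCHD4 transfection and harvest differ among the backgrounds and cannot be told apart from them. CHD4 was at 52.6 to 56.5 FPKM with siCHD4 plus decitabine, against 27.1 to 29.1 with siCHD4 plus siDNMT1, and its part in these differences was not tested.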

How the results depend on the processing

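Of the 40 keratin values called, 19 kept their call under every alternative run in which the gene was tested and 21 lost it in at least 1, and none changed direction. The filter at 5 FPKM left some of these genes untested and covered 19 of the 40 values, not the same 19. Rescaling by the median ratio ended none. Left-out libraries took 55 of 276 calls, and 5 of 90 printed values that were not called passed. Leaving out a library can change both the estimate and the spread, and the cause of the losses was not tested. Of 71 calls of named partner genes, 47 were kept under every alternative run in which the gene was tested.

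The counts that follow show how far calls hold, with those of all genes where they were computed. With a pseudocount of 0.1, 2 keratins in place of 4 rose with siCHD4 plus decitabine. With no filter, 3 in place of 1 differed between siCHD4 with siDNMT1 and alone (4.34% of all fitted genes higher and 1.17% lower). At 5 FPKM, which tests fewer keratins, 0 rose with siCHD4 alone, 2 with siDNMT1 added and 1 with decitabine added, 3 with siDNMT1 and 3 with decitabine, 0 differed between siCHD4 with siDNMT1 and alone, and 2 between siDNMT1 and decitabine. After quantile normalization 1 rose with siCHD4 alone, 3 with siDNMT1 added, 3 with siDNMT1 and 5 with decitabine, 1 fell with siCHD4 plus decitabine, and 2, 2 and 7 differed (siDNMT1 minus alone, decitabine minus alone, siDNMT1 minus decitabine, against 1, 1 and 4). Over all tested genes, higher calls went from 1227 to 1023 with siCHD4 alone and from 3175 to 2905 with siDNMT1 added. They went from 889 to 650 with siDNMT1 and from 1230 to 945 with decitabine. Lower calls with siCHD4 plus decitabine went from 168 to 257. Called differences, higher and lower, went from 363 and 165 to 408 and 312, from 99 and 49 to 86 and 50, and from 533 and 543 to 755 and 803. A fit on the compared groups only gave 0 lower with siCHD4 plus decitabine, 4 higher with decitabine and 0 differing between decitabine and alone. The number of filament partner and desmosome genes raised by siCHD4 ranged from 2 to 5 alone (4 as reported) and 1 to 6 with decitabine (3), and that of hemidesmosome genes from 1 to 4 in both (3 and 4).

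Leaving out 1 library at a time gave 1 to 2 higher and 3 to 4 lower keratins with siCHD4 alone, 3 to 5 and 3 to 4 with siDNMT1 added, 3 to 4 and 1 to 3 with decitabine added, 4 to 6 higher with siDNMT1 and 6 to 8 with decitabine, and 1 to 4, 1 to 2 and 1 to 6 differing (siDNMT1 minus alone, decitabine minus alone, siDNMT1 minus decitabine). KRT5 with siCHD4 alone (-0.26) ranged from -0.81 without siCHD4 replicate 2 to 0.056 without siCHD4 replicate 0. Without both replicates 2, an alternative chosen after their values were seen, KRT19 with siCHD4 alone turned from 0.56 to -0.15, and 4 keratins differed between siCHD4 with siDNMT1 and alone and 2 between decitabine and alone.

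The replicate block gave 2 higher and 3 lower with siCHD4, 6 and 4 with siDNMT1 added, 3 and 2 with decitabine added, 4 and 0 with siDNMT1, 7 and 0 with decitabine, and 1, 1 and 4 differences. It ended 3 calls: KRT85 with siCHD4 plus decitabine (adjusted p = 0.0616) and with siDNMT1 (0.0608), and KRT23 with decitabine (0.0505). Same-numbered libraries had residual correlations of -0.31 to 0.126 over 45 pairs, so the numbers were not taken to pair libraries. Without read counts, low values such as those of KRT85 have no counting interval.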
